A study of Mus musculus with 12 samples.

Results

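Convergent coding pairs are neighbouring protein-coding genes on opposite strands that run towards each other and whose last exons cover the same genomic bases. They were taken from the deposited gene models (mm9, NCBIM37) as pairs of a plus-strand and a minus-strand coding locus, the plus-strand locus starting first and neither start lying inside the other locus, in which a last exon of one coding transcript on each strand overlapped by 1 bp or more. A locus here is a gene of the deposited file, and it is coding where at least 1 of its transcripts carries a protein identifier. Its start and end were taken over all of its transcripts, those without a protein identifier included. The rule gave 572 pairs, which held 1144 of the 22206 coding loci (5.15%), and no locus fell into more than 1 pair.

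The models came with an RNA-seq study of the nucleus accumbens (NAc), a striatal brain region of reward learning, in C57BL/6 mice (adult C57BL/6 J males by the methods), aged 8 to 10 weeks by the labels and 8 weeks by the methods. Its 12 samples were pools of NAc, from 3 to 5 animals each by the labels and from 5 by the text of the study, with 3 pools in each of 4 groups: repeated cocaine (20 mg/kg, injected intraperitoneally on 7 days), its saline control, acute cocaine (6 days of saline and 1 day of cocaine at 20 mg/kg) and its own saline control. Tissue was collected 24 h after the final injection. The deposited file holds exon coordinates and no value per pool, so the level of a gene in any group, the depth of a library and a difference between cocaine and saline were not analysed here. Every number below is a complete count or a length over the gene models, without replicates, and no statistical test was applied.

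The 3′ end of an mRNA is made by cleavage of the nascent transcript a short distance downstream of a poly(A) signal, a hexamer that is most often AATAAA or ATTAAA, followed by addition of the poly(A) tail. RNA polymerase usually continues past that site before it stops. Where 2 genes converge, their 3′ untranslated regions (UTRs) can be encoded on both strands of the same DNA, and their mRNAs are complementary over that stretch. The point matters for measurement too. The library protocol copied mRNA fragments into cDNA with random primers and made the second strand with DNA polymerase I and RNaseH, and names no step that marks the strand. An unspliced read inside an overlap then fits the mRNA of both genes.

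Short overlaps that hold both poly(A) signals show how compact such an end can be. Printed whole here are 4 overlaps of 30 bp or less that held a hexamer of each gene, on the plus strand from 5′ to 3′. They are examples and not a complete count of such overlaps. The first run of capitals is the hexamer of the plus-strand gene and the last run is the reverse complement of the hexamer of the minus-strand gene.
Msh6/Fbxo11 (chr17:88390199-88390223): ttatgatctAATAAAcTTTATTttt
Dpcd/Fbxw4 (chr19:45652744-45652769): tttgtcaacaATTAAAtTTTATTttt
Chrm4/Mdk (chr2:91769962-91769986): atATTAAAaaagaagctTTTATTgg
Rab3a/Mpv17l2 (chr8:73282548-73282576): ttgacATTAAAgagaaTTTAATgaatttc

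In Msh6/Fbxo11, a mismatch repair gene and an F-box protein gene, 25 bp held AATAAA on both strands with a single base between the hexamers, and Dpcd/Fbxw4 had the same spacing in 26 bp. Chrm4, the M4 muscarinic receptor of striatal neurons, shared 25 bp with Mdk, which encodes the growth factor midkine. Rab3a, the Rab GTPase of synaptic vesicles, shared 29 bp with Mpv17l2, and there both strands used ATTAAA.

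Longer overlaps put the ends further apart, and the last 30 bases of each mRNA model show which ends carry a signal. The hexamer is in capitals where 1 was found, and each sequence reads 5′ to 3′ on the strand of its gene.
Nr2c2 (chr6:92123022-92123051, plus strand): ggtttatactATTAAAgtaaattcaagact
Mrps25 (chr6:92119519-92119548, minus strand): agcttttgtcttaattttgaatacatacat
Homer3 (chr8:72818231-72818260, plus strand): AATAAAcaaatgaacaagtaaatgaagtga
Ddx49 (chr8:72816765-72816794, minus strand): gtaaagtgccATTAAAgtgtgaagtactga
Surf2 (chr2:26775674-26775703, plus strand): ctaaagcatcttcagaaaacttttgccaaa
Surf4 (chr2:26775560-26775589, minus strand): acatcaaAATAAAtaatggcatttgtggta
Dvl1 (chr4:155233383-155233412, plus strand): acactaaaaaaagcgtttaattttatggga
Tas1r3 (chr4:155233377-155233406, minus strand): aaaATTAAAcgctttttttagtgtttaaaa
Thra (chr11:98630291-98630320, plus strand): ggttctccataaaaggtatgttgaattgaa
Nr1d1 (chr11:98629246-98629275, minus strand): cctgtctcaaatccaatagttcacagctga

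Both ends of Homer3/Ddx49 carried a hexamer, AATAAA in Homer3 and ATTAAA in Ddx49. Surf4 and Tas1r3 had a hexamer and their partners Surf2 and Dvl1 had none. Neither end of Thra/Nr1d1 held AATAAA or ATTAAA in the counted window. No match says only that these letters are not in this stretch.

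Overlaps ranged from 1 to 3533 bp, with a median of 222 bp and quartiles of 70.75 and 517.25 bp (mean 388 ± 464 bp, SD over 572 pairs). Of the pairs, 35 (6.12%) overlapped by under 10 bp and 185 (32.3%) by under 100 bp, the length of 1 read in this study. At the other extreme, 57 pairs (9.97%) overlapped by 1000 bp or more, and these held 38.5% of the summed 221757 bp. The lengths thus spanned from a single base to whole 3′ UTRs, and the long pairs carried a larger share of the bases than of the pairs.

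**Figure D1:**
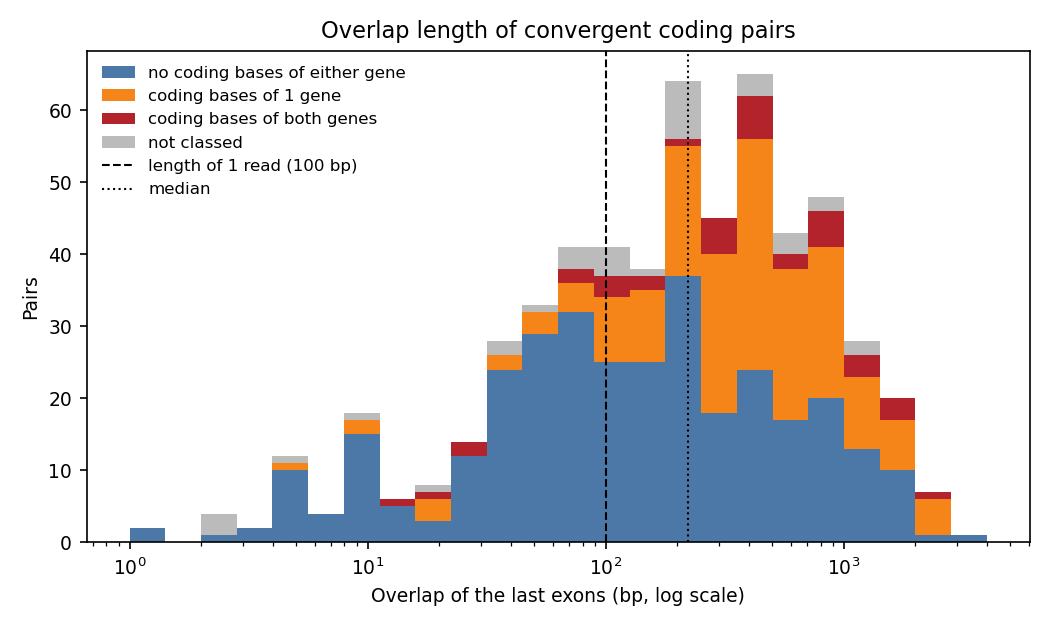
Histogram of the overlap of last exons (bp, log scale) over the 572 pairs, stacked by whether the overlap holds coding bases of neither gene (330 pairs), 1 gene (170) or both (37), with 35 pairs not classed. The dashed line marks a read of 100 bp, the dotted line the median of 222 bp; short overlaps are mostly free of coding bases (median 127 bp) and those with coding bases of 1 gene are longer (median 412.5 bp).

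The longest overlap, 3533 bp at chr6:92119519-92123051, joined Nr2c2, an orphan nuclear receptor, and Mrps25, a protein of the small mitochondrial ribosomal subunit. It lay wholly in 3′ UTR and covered 65.1% of the 5427-bp UTR of Nr2c2 and 64.2% of the 5500-bp UTR of Mrps25 (UTR lengths here include the stop codon). Phospho1, a phosphatase of bone mineralization, and Abi3, an adaptor of actin regulation, overlapped by 2444 bp, although the Phospho1 model that reached so far was listed as a nonsense-mediated decay transcript. Echdc1, an acyl-CoA decarboxylase, had its whole last exon of 2321 bp inside that of Rnf146, a ubiquitin ligase. The same arrangement was found for Clvs1 in Asph (2302 bp), for Cd247, the zeta chain of the T cell receptor complex, in Pou2f1, the transcription factor Oct-1 (2136 bp), for Vcl, encoding vinculin, in Ap3m1, a subunit of the AP-3 adaptor (2087 bp), and for AW146020 in Mrpl19 (1962 bp). Tmem140 and 3110062M04Rik overlapped by 2168 bp. Rab3gap2, a subunit of the GTPase-activating complex of Rab3, and Iars2, the mitochondrial isoleucyl-tRNA synthetase, overlapped by 2018 bp in UTR alone. Tubgcp4, of the gamma-tubulin complex, and Trp53bp1, of the DNA damage response, overlapped by 1873 bp and completed the 10 longest.

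The shortest overlaps lay at the edge of the rule. Itga7, a laminin-binding integrin, and Mettl7b shared 1 base, as did Ttc19, an assembly factor of respiratory complex III, and Ncor1, the nuclear receptor corepressor. Overlaps of 2 bp included those of Calu/Opn1sw, Treh/Phldb1 and Tsnaxip1/Cenpt, those of 3 bp included Grap/Slc5a10 and Hspb6/Lin37, and those of 4 bp that the naming rule reached included 2700081O15Rik/Rtn3 and F630110N24Rik/Fzr1. Just outside the rule, the ends of Arsg/Wipi1, Bhlha15/Tecpr1, Coro6/Ankrd13b, Kcnh3/Mcrs1, Lrrc26/Grin1, Med20/Prickle4, Srrm2/Tceb2 and Trp53i11/Tspan18 met with 0 bases between them. A single base of annotation separates these sets.

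Most overlaps were staggered. In 345 pairs (60.3%) each last exon began before the other and ended inside it, with a median overlap of 109 bp. In 96 pairs (16.8%) the last exon of the plus-strand gene lay wholly inside that of the minus-strand gene (median 467.5 bp), and in 83 (14.5%) the minus-strand exon lay inside the plus-strand one (median 350 bp). In the remaining 48 (8.39%) each mRNA model ran past the far edge of the other's last exon (median 309.5 bp). A last exon was covered in full in 179 pairs, and over the 1144 last exons the median cover was 22.8% (quartiles 8.54% and 60.8%).

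**Figure D2:**
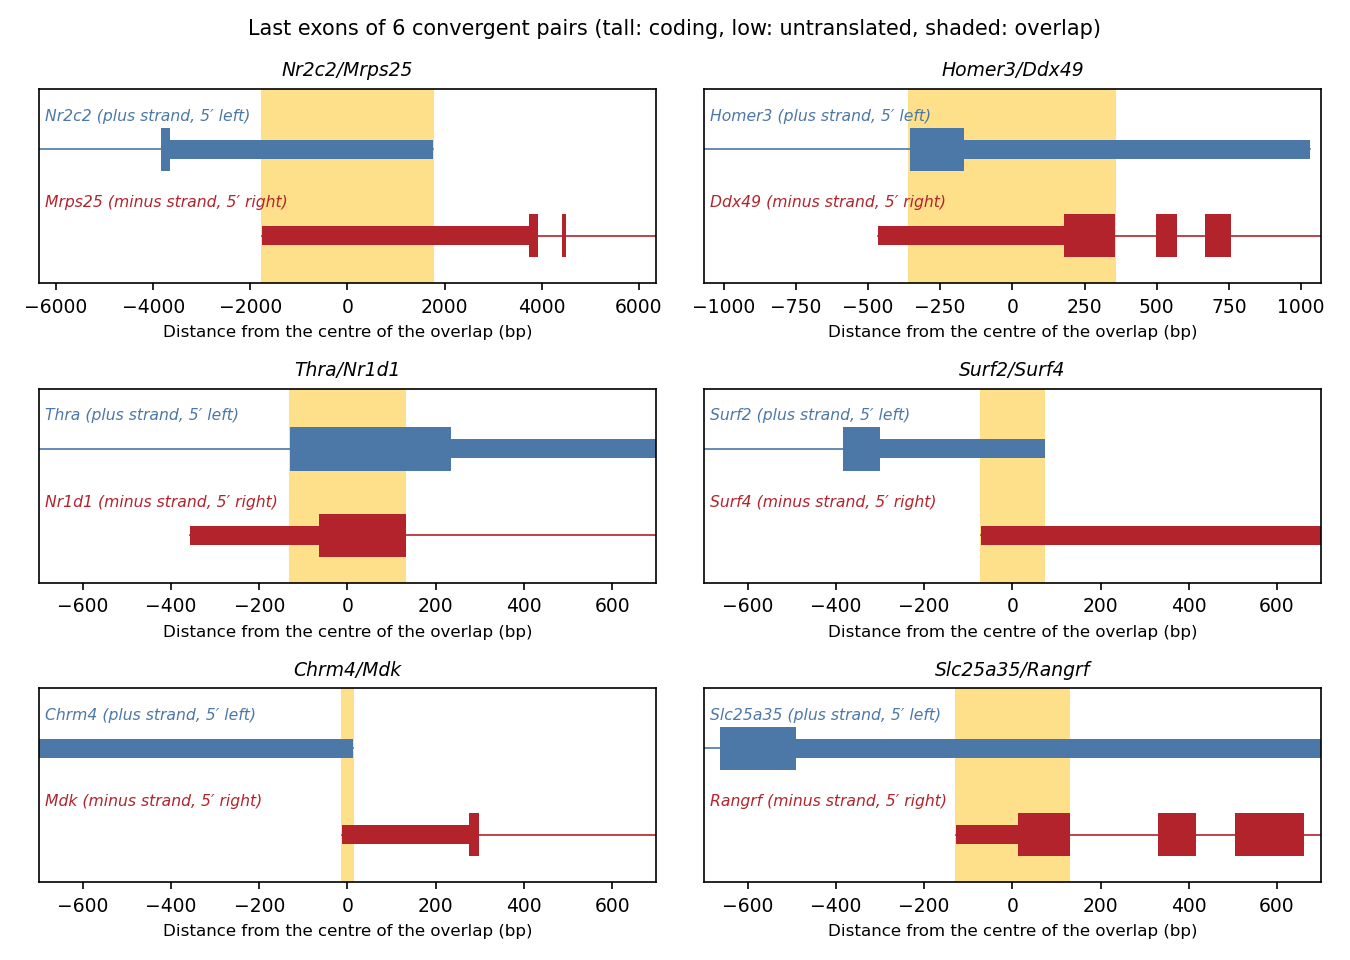
Models of 6 pairs drawn to scale around the centre of their overlap (x axis, distance in bp; plus-strand gene above, minus-strand gene below). Tall boxes are coding and low boxes untranslated parts of exons, thin lines are introns, and the shaded band is the overlap: 3533 bp for Nr2c2/Mrps25, 713 bp for Homer3/Ddx49, 263 bp for Thra/Nr1d1, 144 bp for Surf2/Surf4, 25 bp for Chrm4/Mdk and 258 bp for Slc25a35/Rangrf.

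Coding sequence was looked up in GENCODE M1, an annotation of the same build, for transcripts with the same exons, and 537 pairs could be classed. In 330 of them the overlap held no coding base of either gene (median 127 bp), in 170 it held coding bases of 1 gene (median 412.5 bp) and in 37 of both (median 390 bp). Overlap between UTRs alone was thus the commonest arrangement, and the overlaps that reached a reading frame were longer. Over the 1101 ends with a 3′ UTR, counted with the stop codon, the overlap took a median of 26.9% of the UTR (quartiles 8.82% and 68.2%), 373 UTRs (33.9%) lay inside it by more than 50%, and 162 lay inside it in full. These counts include ends that held the stop codon alone, such as that of Chaf1a.

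The overlaps with most coding bases of 1 gene were those of Bmp2k, a protein kinase, with Paqr3 (1154 coding bases of Bmp2k in 1185 bp), of Lrrc14 with C030006K11Rik (932 coding bases of C030006K11Rik in 1031 bp), of Tesk1, a kinase of actin regulators, with Cd72, a B cell coreceptor (881 coding bases of Tesk1 in 1423 bp), of Gm15557 with Gdf5, a growth factor of joint development (872 coding bases of Gdf5 in 936 bp), and of Masp2, a protease of the complement system, with Tardbp, which encodes the RNA-binding protein TDP-43 (761 coding bases of Masp2 in 1742 bp). In Gm15557/Gdf5 the overlap also held coding bases of Gm15557, so this pair had coding bases of both genes. Of the last exon of Tesk1, 98.1% lay opposite that of Cd72.

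Bases that code on both strands at once were rarer and occurred in 13 pairs. The highest counts were 625 in Gm15557/Gdf5, 221 in AC156990.1/Bag4, 216 in Gm13271/Gm16686 and 197 in Thra/Nr1d1. Leaving out the 9 pairs in which a model's 3′ end was tagged as not found in the annotation gave 10 such pairs, and 34 with coding bases of both genes in the overlap. Thra, the thyroid hormone receptor alpha, and Nr1d1, the circadian repressor Rev-erb alpha, overlapped by 263 bp at chr11:98629471-98629733, all of it coding in the Thra model, and 66 of the bases were 3′ UTR of Nr1d1. Only 2 of the 10 combinations of their coding transcripts overlapped.

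The mitochondrial genome contributed 1 pair, mt-Nd5/mt-Nd6, both subunits of respiratory complex I, which was named after its values were seen. Its 14 bp (chrM:13552-13565) are printed on the strand of each gene with the stop codon in capitals, because the reading frames of both genes end there and 8 bases code on both strands.
mt-Nd5 (plus strand): ttaatctcgagTAA
mt-Nd6 (minus strand): ttactcgagatTAA

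Whether an overlap exists depended on the isoform. In 508 pairs more than 1 combination of coding transcripts was possible, and the last exons overlapped in all combinations in 78 of them (15.4%). The median over the 508 pairs was 40% of combinations, and in 147 pairs a single combination gave the overlap. Of the 3463 coding transcripts of the members, 1987 (57.4%) had a last exon that overlapped one of the partner. Where several combinations overlapped (361 pairs), the longest and the shortest overlap differed by a median of 7 bp and by up to 2317 bp, the latter in Echdc1/Rnf146 with 2321 and 4 bp. In Clvs1/Asph 8 of 36 combinations overlapped, in Ttc19/Ncor1 1 of 48, and in Itga7/Mettl7b all 5. With the end least far downstream standing for each locus, 151 of the 572 pairs were left.

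Members had more annotated isoforms than the 21062 other coding loci. They averaged 3.03 ± 2.33 coding transcripts per locus and the others 2.24 ± 2.07 (SD over loci), and 62.2% of the members had more than 1 annotated end, against 41.5% of the others. The rule accepts the last exon of any coding transcript, so a locus with more ends had more chances to enter, and this difference is a description. The longest last exon had a median of 1172.5 bp in members and 1035 bp in the others, and the exonic bases of a locus a median of 3082.5 and 2410 bp. Loci whose coding transcripts all had a single exon made up 10 of the 1144 members (0.874%) and 2896 of the others (13.7%). Models with no base after the stop codon, which cannot reach a neighbour through a UTR, made up 1.27% of the members with annotated coding sequence and 13.6% of the others.

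The share of a gene that lies opposite its partner bears on how reads without strand are assigned. Over the exons of all coding transcripts of a locus, a median of 8.63% of the bases were also exonic in the partner (quartiles 2.51% and 20.6%, 1144 loci). This share exceeded 10% in 532 loci, 25% in 223 (19.5%) and 50% in 50 (4.37%). Against exons of any locus on the other strand the median was 10.8% in members and 0% in the other coding loci, of which 2382 (11.3%) had any such base. The rule requires such bases of every member, so this difference follows from the choice of members and is no separate result. Shared bases outside the last exons, where an isoform reached deeper into its neighbour, occurred in 119 pairs (20.8%) and came to 31070 of 257346 shared bp.

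A read has to lie in 1 unbroken stretch of shared exon to fit both mRNAs end to end. On the transcripts that gave the overlap, positions of an unspliced 100-bp read wholly inside exons of the partner existed in 390 pairs (68.2%), or 780 loci. In these 780 loci they made up a median of 11.9% of all positions on the mRNA and at most 82.3%, which was reached in Tmem140. The share exceeded 10% in 432 loci and 25% in 179. In the other pairs no stretch of exon shared by the transcripts reached 100 bp. How the reads were in fact divided between partners was not examined, since the file holds no reads, and spliced reads carry the strand of their splice sites.

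**Figure D3:**
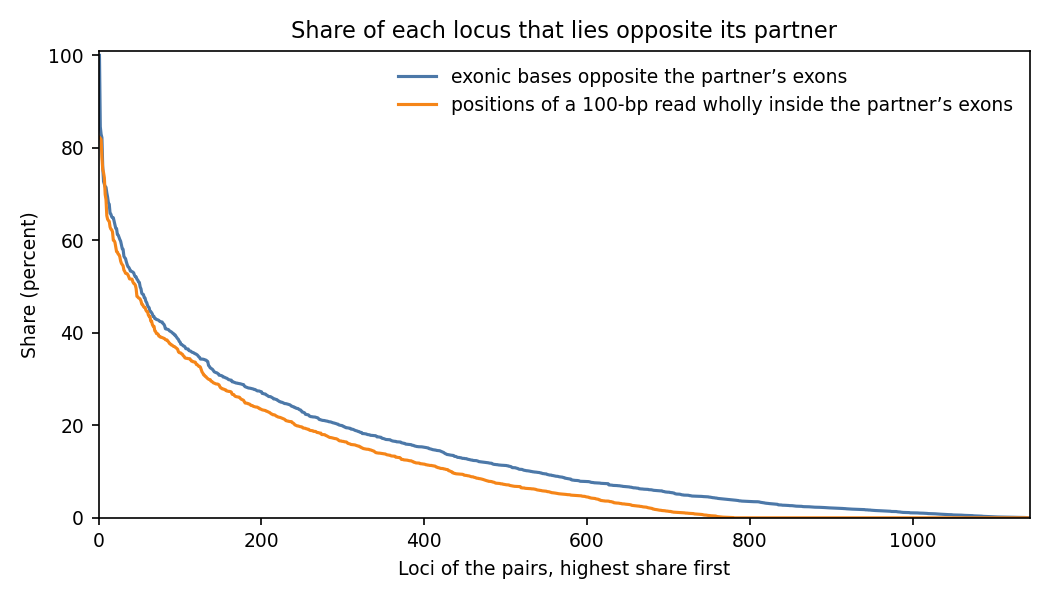
For each of the 1144 loci, ordered from the highest, the percent of exonic bases opposite exons of the partner (blue) and the percent of 100-bp read positions wholly inside the partner's exons (orange). The blue curve has a median of 8.63%; the orange curve meets 0 after 780 loci.

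Among the 5 loci with the highest shares, 1 was exonic on both strands throughout. All 820 exonic bases of Rangrf, a nuclear transport factor that acts on Ran, were exonic in Slc25a35, and 46.9% of its read positions lay wholly inside exons of the overlapping Slc25a35 transcript. The coding Rangrf model, its start included, lay inside the last exon of Slc25a35. The Rangrf locus met the condition on starts only through transcripts without a protein identifier. Tnnc2, the fast skeletal muscle troponin C, had 84.6% of its 700 exonic bases opposite Ube2c, a ubiquitin-conjugating enzyme of mitosis, of which 22.8% were shared in turn. Tmem140 had 82.9% opposite 3110062M04Rik, and Ilk, encoding integrin-linked kinase, 82.2% opposite Taf10, a subunit of TFIID. Ormdl2, a regulator of sphingolipid synthesis, had 75.9% opposite Dnajc14, a cochaperone. In each of these pairs the partner had a lower share, for example 37.2% in Taf10 and 36.5% in Dnajc14.

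Genes of dopamine and striatal signalling were among the members. Of 31 listed genes 3 belonged to a pair (9.68%, beside 5.15% of all coding loci). Gnal, the G protein alpha subunit that couples the dopamine D1 receptor to adenylyl cyclase, overlapped with Mppe1 by 355 bp, which took up the whole last exon of Mppe1, 13.4% of the read positions of Mppe1 and 5.00% of those of the long Gnal mRNA. Chrm4 and Mdk, whose 25-bp overlap is printed above, had no read position wholly in shared exons. The dopamine receptor genes Drd1a, Drd2, Drd3, Drd4 and Drd5, the dopamine transporter gene Slc6a3 and the opioid peptide genes Penk and Pdyn were in no pair.

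Of 39 listed glutamate and GABA receptor genes, 2 were members (5.13%, beside 5.15% of all coding loci). Gabra5, a GABA-A receptor alpha subunit, had 118 coding bases opposite the last exon of Gm9962, a locus of 323 exonic bases, and 0.744% of its read positions were shared. Grin3b, an NMDA receptor subunit, overlapped with ORF61 by 73 bp, short of a read. Chrm4 was the single member among 21 acetylcholine receptor genes (4.76%). Grin1, the obligate NMDA receptor subunit, stood just outside, with its end adjoining that of Lrrc26.

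Of 34 genes of synaptic vesicles and scaffolds, 4 were members (11.8%, beside 5.15% of all coding loci). With so few genes the share is a description. Homer3, a scaffold that binds metabotropic glutamate receptors, had the longest overlap among them, 713 bp with the RNA helicase gene Ddx49 at chr8:72816874-72817586. The overlap held 189 coding bases of Homer3 and 177 of Ddx49, with none coding on both strands, and 26.2% of the read positions of Homer3 and 30.1% of those of Ddx49 lay in shared exons. Rab3a overlapped with Mpv17l2 by 29 bp and Syn1, encoding synapsin I, with Araf, a Raf kinase, by 9 bp. No read position was wholly shared in these last pairs.

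Among 19 immediate early genes, which neurons induce within minutes of a stimulus, 2 were members (10.5%, beside 5.15% of all coding loci). Fosl1, the AP-1 subunit Fra-1, had its whole last exon of 1054 bp, 414 of them coding, inside the single exon of Ccdc85b, and 964 of its 1608 read positions were shared, which made up 22.5% of the positions of Ccdc85b. Egr1, a zinc finger transcription factor, touched AC114820.1 by 8 bp. AC114820.1 was a model of 36 exonic bases, shorter than a read.

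Of 23 genes whose products make 3′ ends, 3 were members themselves (13.0%, beside 5.15% of all coding loci). Fip1l1, a subunit of the cleavage and polyadenylation specificity factor CPSF, overlapped with Lnx1 by 467 bp in 4 of 63 combinations, through a Lnx1 transcript listed as nonsense-mediated decay. Cstf2, of the cleavage stimulation factor, overlapped with Nox1, an NADPH oxidase, by 399 bp, and Cpsf1, the largest CPSF subunit, with Adck5 by 8 bp. None of 40 listed splicing factors, Rbfox1, Rbfox2 and Rbfox3 included, was in a pair (0%, beside 5.15% of all coding loci). With so few genes this count is a description.

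Of 14 genes that the study's text names, 3 were members (21.4%, beside 5.15% of all coding loci). Rps6kb2, encoding ribosomal protein S6 kinase 2, overlapped by 46 bp with Ptprcap, a protein associated with the phosphatase CD45, in 2 of 6 combinations. Dvl1, a transducer of Wnt signals, overlapped by 36 bp with Tas1r3, a subunit of sweet and umami taste receptors, in 1 of 2 combinations, and Egr1 is given above. No read position lay wholly inside shared exons in any of the 3 pairs, and the shared bases made up 2.17% of Rps6kb2, 1.07% of Dvl1 and 0.258% of Egr1.

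A further list held 16 genes put together because they were known as tail-to-tail neighbours, so its count is no independent result. Of these, 10 formed 5 pairs here, namely Thra/Nr1d1 (263 bp), Surf2/Surf4 (144 bp), Dhps/Wdr83 (128 bp), Ercc1/Cd3eap (106 bp) and Msh6/Fbxo11 (25 bp). Dhps, which makes hypusine in the translation factor eIF5A, and Wdr83 overlapped by between 3 and 128 bp in 5 of 10 combinations. Ercc1, a nuclease subunit of DNA repair, had its whole last exon of 106 bp inside that of Cd3eap, a subunit of RNA polymerase I, and 51 of its bases were coding. Chrna3/Chrna5, Pink1/Ddost and Mink1/Chrne did not meet the rule.

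Spans of coding neighbours overlapped in a larger share of those that faced each other with their 3′ ends than with their 5′ ends, though not at every length of overlap. Among 5174 pairs of adjacent convergent coding loci that were not nested, the spans overlapped in 707 (13.7%), and among 5173 divergent pairs in 484 (9.36%). The pairs of the rule accounted for 551 of the 707, and the other 156 did not meet the rule. An overlap of 1 to 100 bp was found in 150 convergent and 42 divergent neighbours, but one of over 100 and up to 200 bp in 55 convergent and 69 divergent ones, and one of 1 to 1000 bp in 362 convergent and 384 divergent ones. A gap of 0 to 99 bp separated 107 convergent and 277 divergent neighbours. The median distance was 8000.5 bp in convergent and 17668 bp in divergent neighbours. When the rule was mirrored to first exons, 332 divergent pairs resulted, with a median overlap of 147 bp and a maximum of 1445 bp, against 222 and 3533 bp for the convergent pairs. Of the members, 66 (5.77%) were also in such a divergent pair, compared with 598 of the other coding loci (2.84%). Members also had more groups of transcription start sites per locus (mean 2.99, against 1.98 in the others). The part of this in the difference was not tested.

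**Figure D4:**
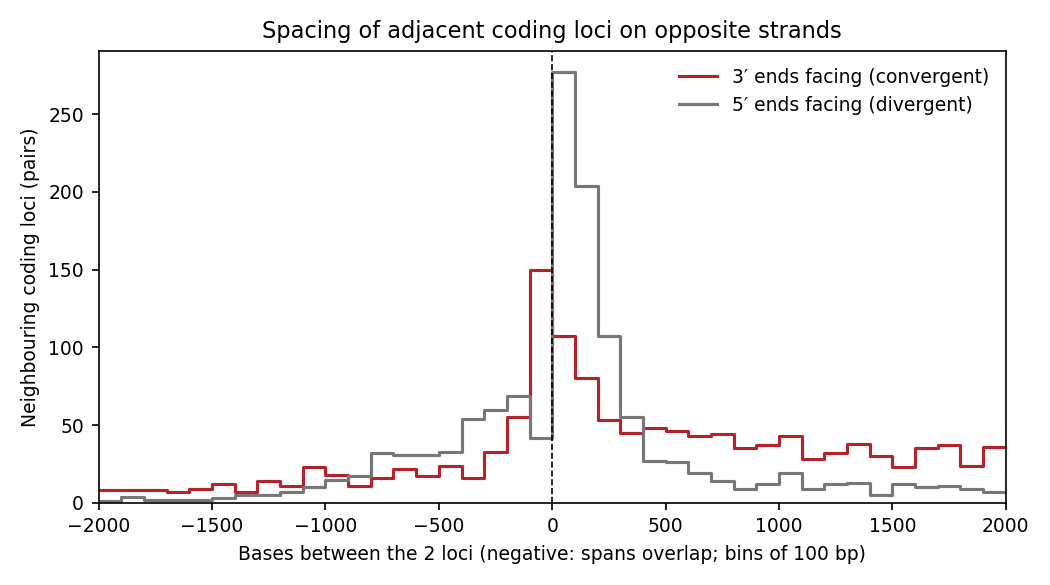
Number of adjacent coding loci on opposite strands (y axis) by the bases between them (x axis, bins of 100 bp, negative where spans overlap), for convergent (red) and divergent (grey) neighbours. Convergent neighbours peak at an overlap of 1 to 100 bp (150), divergent ones at a gap of 0 to 99 bp (277).

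A poly(A) signal hexamer (AATAAA or ATTAAA, on the strand of the gene) lay 10 to 40 bases before the farthest annotated end in 763 of the 1144 members (66.7%) and in 13103 of the 21062 other coding loci (62.2%), or 62.4% of all. In windows 200 bases further upstream the shares were 2.71% and 2.75%. With AATAAA alone they were 53.8% in members and 50.6% in the others. At the ends that gave the overlap, both carried a hexamer in 250 pairs (43.7%), 1 in 258 and none in 64. In 138 pairs (24.1%) both hexamers lay inside the overlap, and in 5 they shared bases. Both lay inside it in Msh6/Fbxo11, Dpcd/Fbxw4, Chrm4/Mdk and Rab3a/Mpv17l2, whose overlaps are printed above.

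**Figure D5:**
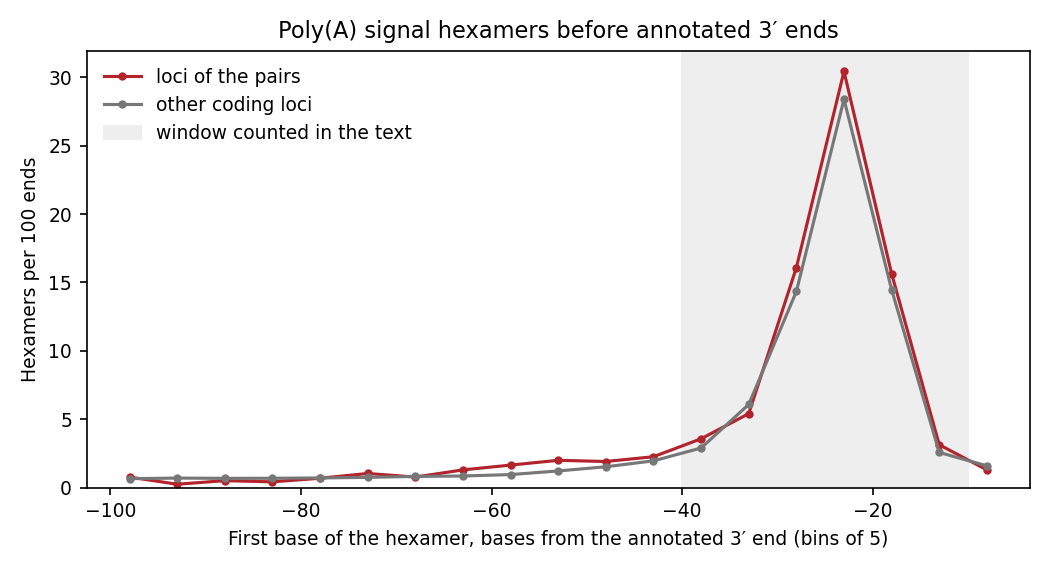
Hexamers per 100 ends (y axis) by the position of their first base before the annotated 3′ end (x axis, bins of 5 bases), for the 1144 loci of the pairs (red) and the 21062 other coding loci (grey); the window counted is shaded. Both curves peak 21 to 25 bases before the end, at 30.4 per 100 in the loci of the pairs and 28.4 per 100 in the others.

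Base composition differed between the overlap and the rest of the last exon. Overlaps of 50 bp or more had a median GC content of 42.3% (466 overlaps). The remainder of their last exons had a median of 49.2%, over the 746 with at least 50 bp of remainder. The overlap was lower than the remainder in 547 of these 746 last exons. The remainder includes coding sequence in many exons, and the part of that in the difference was not tested.

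The pairs were spread over all chromosomes but Y. Members made up the largest share of coding loci on chromosome 19 (6.47%, 23 pairs), followed by chromosomes 5, 11 and 17 (6.42%, 6.42% and 6.36%), leaving aside the 10 coding loci of the mitochondrial genome. The smallest shares above 0 were on X (2.64%, 12 pairs) and chromosome 13 (3.00%, 13 pairs).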

How the data were processed

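Poly(A) RNA of 12 NAc pools was sequenced on a HiSeq2000; CASAVA, TopHat and the Cufflinks suite with Cuffdiff are listed in the notes of the submitters (versions not given in the sources used here), with mm9 as build, and the methods name Ensembl models of NCBIM37. The deposited file holds 624665 exon records of 87740 transcripts in 35406 loci, with start and end positions as its only measurements and no columns of values per pool, so depth is unknown. Of 50689 coding transcripts, 49131 (96.9%) had identical exons in GENCODE M1, which supplied coding sequence, transcript types and tags. Sequences came from the NCBIM37 genome.

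Overlap is the longest over pairs of last exons. Named pairs were the 10 longest and 10 shortest, the 5 loci with the highest shared fraction, the 5 pairs with most coding bases, and pairs with listed genes. The members and lists were chosen with earlier results of these data known. The Rbfox symbols were set to those of the file. The rule was tested on simulated models. Python 3.11.15, numpy 2.4.6, scipy 1.17.1 and matplotlib 3.10.9 were used. Alternatives to the transcripts, ends, thresholds and annotation are given in the closing section. Values of 3 pairs that this rule names are not reported here.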

Additional observations from a re-analysis of the deposited data

How the results depend on the processing

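The count of 572 pairs fell to 151 where the coding transcript ending least far downstream stood for each locus. It lay between 387 (overlap of 100 bp or more) and 613 (last exons of all transcripts) under the other settings, which gave 605 with protein_coding biotype in place of a protein identifier, 527 with the farthest end, 537 with 10 bp or more, 581 by gene name, 600 without the condition on the minus-strand start and 591 with GENCODE M1 models, of which 568 matched a pair here. The last 2 settings were chosen after seeing the data and gave 568 pairs without 3′ ends tagged as not found and 561 without nonsense-mediated decay transcripts. The median overlap of 222 bp became 123 bp with the smallest overlap of a pair. The median shared fraction of 8.63% became 10.8% with exons of any locus, the share of overlapping convergent neighbours of 13.7% became 16.1% among loci of all kinds, and the share of ends with a hexamer of 66.7% became 70.2% in the last 50 bases and 53.8% with AATAAA alone. The cause of these shifts is the construction of each setting. No paired analysis was possible because the file holds no value per pool, and leaving out replicates was not possible for the same reason.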

Other observations

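Gene families, chosen after the values were seen, differed in how many of their coding loci were in convergent pairs. None of the 1104 olfactory receptor (Olfr) loci and none of the 186 vomeronasal receptor (Vmn1r or Vmn2r) loci was in a pair, and 15 of 1627 loci named Gm and a number were (0.922%), beside 5.15% of all coding loci. Beside these counts, the model that ended farthest downstream had no base after the stop codon in 66.0% of the Olfr, 68.6% of the vomeronasal and 44.5% of the Gm loci with annotated coding sequence; the part of this in the counts was not tested. Zinc finger (Zfp) loci had 8 of 355 in pairs (2.25%), with 14.2% of models ending at the stop codon, and keratin (Krt) loci had 0 of 51, with 1.96%. Loci of coiled-coil domain (Ccdc) genes had 14 of 137 in pairs (10.2%), deubiquitinase (Usp) loci 4 of 49 (8.16%), mitochondrial ribosomal protein (Mrpl or Mrps) loci 6 of 75 (8.00%) and solute carrier (Slc) loci 17 of 345 (4.93%). The other families counted lay near the 5.15% of all coding loci. Loci named Rik had 71 of 1381 in pairs (5.14%), Tmem 10 of 216 (4.63%), Nduf 2 of 41 (4.88%) and Rpl or Rps 5 of 79 (6.33%). Several families are small, so these shares are descriptions.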
